A study of Homo sapiens with 2 samples.

Results

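RUNX1, MYB, GATA3, ETV6, TAL1, LMO1, LMO2, TCF3, TCF12 and LYL1 encode transcription factors, or the adaptors that join them, known from T-ALL, the acute lymphoblastic leukemia of T-cell precursors. They are 10 of the 20033 protein-coding genes of GENCODE 44 and were chosen by name. Each was looked up in 2 lists of NUDT21 Cut &Tag peaks. A peak was a promoter peak when its nearest edge lay within 3000 bp of any transcript start of the gene, and a gene body peak when it overlapped the gene. Peaks up to 50000 bp beyond the gene were listed apart as flank peaks.

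Both libraries came from J.gamma1 cells, a human T-ALL line of the Jurkat family, stained with an antibody against NUDT21. They form 1 group of 2 replicates, named replicate 1 and replicate 2, with no second condition. There was therefore no comparison to test, and the main results are given as values in each replicate beside the same value over all protein-coding genes. The study describes the replicates as biologically independent. Peak lists carry no RNA level, so whether the cells made each factor was not measured. In Cut &Tag a transposase tethered through the antibody cuts the chromatin around the target, and the fragments it releases are sequenced. The fold of a peak is its scaled fragment pileup plus 1 over the control level of the peak caller plus 1. The fold was ranked within each list as the percent of peaks with a lower fold, because folds of lists with different depths are not on the same scale.

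NUDT21 is the small subunit of cleavage factor Im. It is known for binding UGUA in RNA upstream of cleavage sites and so for the choice of polyadenylation sites. TAL1 and LYL1 are basic helix-loop-helix factors that pair with the E proteins TCF3 (E2A) and TCF12 (HEB) and bind E-boxes. LMO1 and LMO2 bind no DNA themselves and bridge such pairs to GATA factors. GATA3, RUNX1 and MYB are known to bind enhancers together with TAL1 in T-ALL, each controlling the genes of the others, while ETV6 is an ETS-family repressor often altered in leukemia.

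The list of replicate 1 held 97162 peaks, of which 92722 lay on chromosomes 1 to 22, X and Y, and that of replicate 2 held 68532, of which 66671 did. The median peak rested on 29 overlapping fragments in replicate 1 and 19 in replicate 2, as recovered from fold and p-value. Peaks covered 98.5 Mb in replicate 1 and 67.1 Mb in replicate 2, so a gene had more chance of a peak in replicate 1.

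To show what the strongest peaks at these genes look like, the sequence around the replicate 1 summit is printed for 5 peaks that both replicates held and that overlap no annotated UTR. These are the peak with the highest fold in the RUNX1 gene body, those at the MYB, TCF3 and TAL1 promoters, and the ETV6 gene body peak with the highest fold in replicate 1. Each window reaches 100 bp to either side of the summit (201 bases, hg38) and reads 5′ to 3′ on the strand of the gene. Capitals mark matches on either strand to the E-box CANNTG, the GATA motif AGATAA, the RUNX motif TGTGGT, the ETS motif GGAAG and the MYB motif AACTG, and neighbouring matches can overlap.
RUNX1 intron, chr21:35027059-35027259, minus strand: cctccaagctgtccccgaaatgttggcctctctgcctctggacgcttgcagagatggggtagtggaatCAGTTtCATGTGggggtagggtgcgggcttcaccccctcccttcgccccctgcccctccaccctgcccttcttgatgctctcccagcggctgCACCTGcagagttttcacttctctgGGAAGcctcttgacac
MYB promoter, chr6:135180424-135180624, plus strand: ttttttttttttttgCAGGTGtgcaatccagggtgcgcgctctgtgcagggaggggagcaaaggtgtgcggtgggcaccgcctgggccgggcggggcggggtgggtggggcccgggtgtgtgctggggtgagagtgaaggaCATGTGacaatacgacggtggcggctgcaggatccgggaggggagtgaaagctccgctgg
TAL1 upstream, chr1:47235144-47235344, minus strand: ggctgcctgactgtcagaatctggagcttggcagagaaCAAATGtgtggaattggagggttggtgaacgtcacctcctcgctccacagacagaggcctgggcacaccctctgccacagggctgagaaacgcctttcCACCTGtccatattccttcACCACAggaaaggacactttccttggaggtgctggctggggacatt
TCF3 promoter, chr19:1652761-1652961, minus strand: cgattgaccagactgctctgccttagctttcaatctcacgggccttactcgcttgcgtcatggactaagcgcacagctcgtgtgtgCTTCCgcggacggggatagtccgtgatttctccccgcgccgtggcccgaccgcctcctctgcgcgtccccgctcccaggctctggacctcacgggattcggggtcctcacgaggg
ETV6 intron, chr12:11730480-11730680, plus strand: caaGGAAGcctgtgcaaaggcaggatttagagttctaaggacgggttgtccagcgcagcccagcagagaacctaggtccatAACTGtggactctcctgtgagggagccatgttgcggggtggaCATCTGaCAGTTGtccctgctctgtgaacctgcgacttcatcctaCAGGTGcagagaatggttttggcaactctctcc
The GC content of these windows was 60.7% at RUNX1, 64.7% at MYB, 55.7% at TAL1, 64.2% at TCF3 and 54.2% at ETV6. The windows of RUNX1, MYB and TAL1 held 2 E-boxes each and that of ETV6 held 3, while that of TCF3 held 0. Windows at GATA3 and LMO1 met the same 2 conditions, are not printed and held 0 E-boxes each. Over all regions with a peak of both lists, 67.3% held an E-box in such a window. The TAL1 window held 1 RUNX motif. The letters TGTA, the DNA form of the NUDT21 RNA motif, occurred 0 times in the windows of RUNX1, MYB, TAL1 and TCF3 and 1 time in that of ETV6.

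Nearly all of the genes had a promoter peak. In replicate 1 all 10 had one, against 69.8% of protein-coding genes, and in replicate 2 there were 9, against 57.9%. In both replicates 9 had one, against 57.0%, and LMO2 was the exception. With 10 genes, each gene is 10 points of such a share. A gene with more starts has more room for a promoter peak. Groups of nearby starts numbered from 1 at LYL1 to 12 at RUNX1 and TCF12, and their part in these counts was not tested. A promoter peak did not always mean a peak at the main start. Only 5 of the 10, namely MYB, ETV6, TAL1, TCF3 and LYL1, had a peak within 500 bp of the canonical transcript start in both replicates, against 44.9% of protein-coding genes, a share near that background.

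The strongest promoter peaks covered the whole span from near the top of the lists to near the bottom. TCF3 came first, with a higher fold than 99.9% of the list in replicate 1 and 99.7% in replicate 2. RUNX1 followed at 97.04% and 95.97%, then LYL1 at 95.87% and 93.95%, TAL1 at 82.4% and 90.4%, and MYB at 96.3% and 72.2%. ETV6 stood at 83.1% and 69.6%, and TCF12 at 89.21% and 23.03%. LMO1 was at 68.3% and 26.3%, and GATA3 at 56.4% and 11.8%, while LMO2 had 58.4% in replicate 1 and no promoter peak in replicate 2. For the first 3 genes the replicates differed by at most 1.92 points. At RUNX1, GATA3 and TCF12 the strongest promoter peak was not the same peak in both replicates. That of RUNX1 lay over starts of protein-coding transcripts in replicate 1 and near the start of a non-coding transcript in replicate 2. TAL1 and MYB, next to each other at means of 86.4% and 84.3%, differed by less than the gap of 24.2 points between the MYB replicates. TCF12 moved by 66.2 points and GATA3 by 44.7, so the order of the lower genes rests on little. The median over the genes with a promoter peak was 86.2% in replicate 1 and 72.2% in replicate 2. Over all protein-coding genes with one it was 82.2% and 77.9%. The replicate 2 value covers 9 genes, since LMO2 had no promoter peak there. For the 9 genes with one in each replicate the median of the mean rank was 84.3%, against 81.3% over all such genes. That median is the value of MYB, whose replicates differed by 24.2 points, and it leaves out LMO2. The genes thus stood on different sides of the others in the 2 replicates, with no clear side in the mean.

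**Figure D1:**
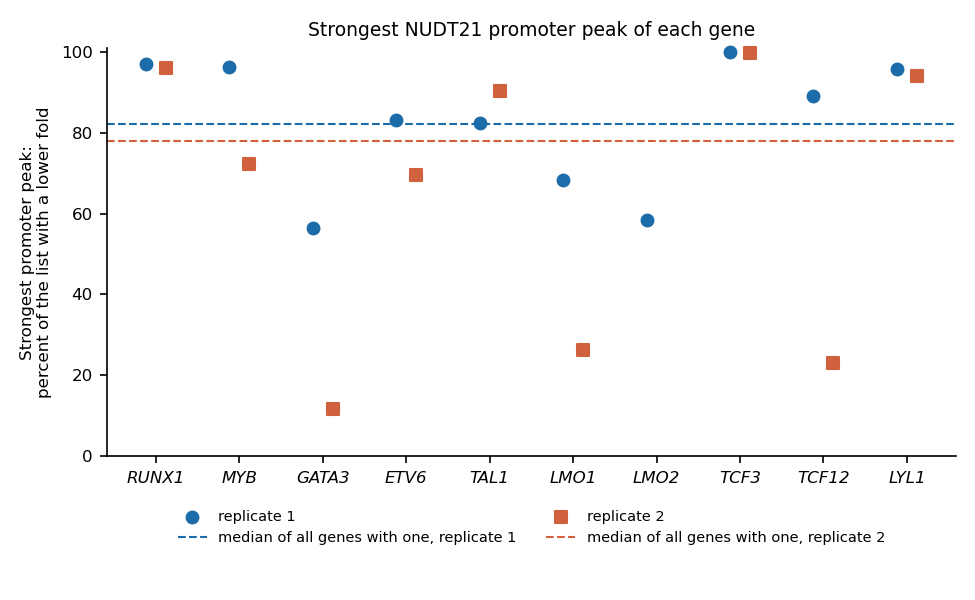
Each point is the strongest promoter peak of a gene in a replicate, as the percent of that replicate's list with a lower fold, and the dashed lines are the medians over all protein-coding genes with a promoter peak. RUNX1, TCF3 and LYL1 sat above 93 in both replicates, the points of GATA3, LMO1 and TCF12 lay far apart, and LMO2 had no point for replicate 2.

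RUNX1, the runt-domain factor needed to form blood stem cells, held the largest number of peaks. The gene as annotated spans chr21:34787801-36004667 on the minus strand. In replicate 1, 53 peaks overlapped it and in replicate 2, 40 did. Most of its annotated length was empty. The 955.4 kb before the canonical start held 3 peaks in replicate 1 and 0 in replicate 2. The 159.5 kb between the canonical start and the next group of starts, which are known as the distal and the proximal promoter, held 23 and 17. The 102.0 kb from there to the gene end held 27 and 23. Per 10 kb, replicate 1 had 0.031 peaks in the first stretch, 1.44 in the second and 2.65 in the last, and replicate 2 had 0, 1.07 and 2.26. Over the whole gene there were 0.436 peaks per 10 kb in replicate 1 and 0.329 in replicate 2. The medians over all protein-coding genes were 0.524 and 0.239. In the mean of the replicates, RUNX1 had a higher density than 48.8% of genes. That value includes the nearly empty 955.4 kb before the canonical start. The part of gene length in its number of peaks was not tested.

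The highest fold of RUNX1 was not at a promoter. An intronic peak 22143 bp downstream of the canonical start had a fold of 15.5 in replicate 1 and 15.6 in replicate 2, higher than 99.4% and 99.8% of the lists. Its summit fell on the same base in both lists, over 117 fragments against a control level of 6 in replicate 1 and 68 fragments against 3.42 in replicate 2. Its sequence is the RUNX1 window printed above. The same intron is known to hold an enhancer used in blood stem cells, and whether this peak is that element was not tested.

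At the proximal starts of RUNX1, replicate 1 had a peak of 3500 bp with a fold of 9.53. Replicate 2 had peaks with folds of 3.93 and 6.15 over the same stretch, the first higher than only 40.3% of its list. At the distal promoter, replicate 1 had a peak of 302 bp with a fold of 4.51 and another 2173 bp upstream with a fold of 6.33, and replicate 2 had none. A peak 187934 bp downstream of the canonical start, near the start of a non-coding RUNX1 transcript, was equally high in both, at 8.45 and 8.36. The median fold over the peaks of the gene was 4.62 in replicate 1 and 4.68 in replicate 2. The intronic peak stood well above that in each.

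**Figure D2:**
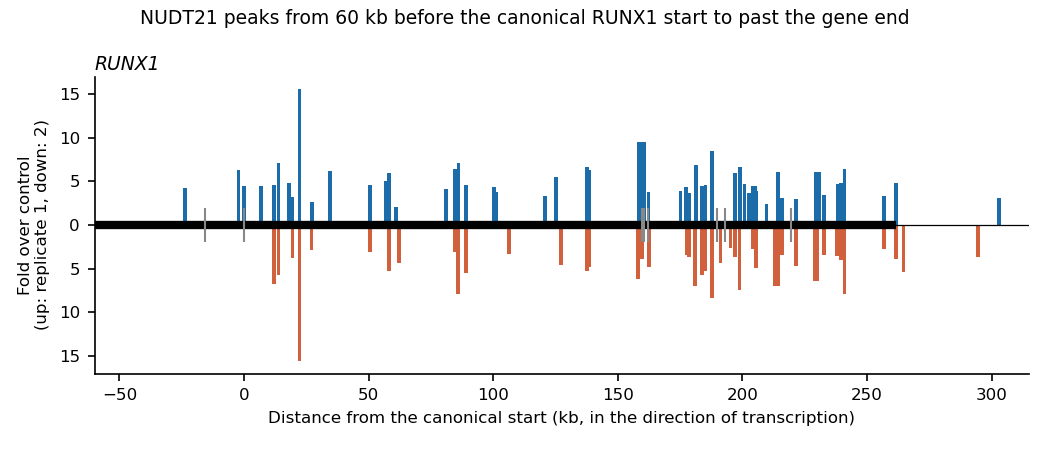
Peaks of replicate 1 (blue, upward) and replicate 2 (red, downward) are drawn with their fold as height against the distance from the canonical RUNX1 start in the direction of transcription (kb). The thick line is the gene, grey ticks are groups of starts, and narrow peaks are drawn at a minimum width. The highest bar of both replicates, 15.5 and 15.6, stands about 22143 bp into the gene, and bars crowd towards the gene end.

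MYB encodes the factor that maintains the progenitor state and is a frequent target of T-ALL lesions. Its main start carried a peak in both replicates, with a fold of 8.92 over 57 fragments in replicate 1 and 5.11 over 17 fragments in replicate 2. The 2 peaks overlapped, but the summit lay 784 bp upstream of the start in replicate 1 and 116 bp downstream in replicate 2. The other 3 groups of MYB starts had no peak within 500 bp in either replicate. Beyond the promoters, the gene body held 1 peak in replicate 1 and 0 in replicate 2, and only 2 and 1 peaks lay in the flanks. Replicate 1 also had a peak 398 bp past the gene end with a fold of 4.71, which replicate 2 lacked.

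GATA3, the factor that directs T-cell commitment, had no promoter peak of over 4.20-fold in either replicate. Replicate 1 placed 4 peaks by its starts, with folds of 2.59, 3.84, 4.20 and 3.22. Replicate 2 placed 1, with a fold of 3.04, at an intronic position 7172 bp downstream of the canonical start. This intronic peak was the only one that both replicates held, and it ranked above 25.7% of the list in replicate 1 and 11.8% in replicate 2. It passed as a promoter peak only by its edge, 2965 bp from the nearest start in replicate 1 and 2792 bp in replicate 2. The canonical start itself had no peak within 500 bp in either replicate. Of the replicate 1 peaks, the pair at 3.84 and 4.20 was in reach of starts of GATA3-AS1 as well, the divergent antisense RNA gene, and cannot be given to either gene.

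ETV6 had a peak just inside the gene in both replicates, with summits 471 and 467 bp downstream of the canonical start and folds of 5.704 and 5.001. Replicate 1 had a further peak 192 bp upstream of that start with a fold of 4.63. Over its 245.7 kb the gene held 11 peaks outside the promoters in replicate 1 and 10 in replicate 2. The intronic peak 80906 bp from the start, whose sequence is printed above, had a fold of 6.47 in replicate 1 and 5.79 in replicate 2. Another, 163628 bp from the start, had folds of 5.33 and 6.49. In replicate 2 both stood above the peak at the start, and in replicate 1 the first of them did.

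TAL1, whose activation defines a large T-ALL subtype, carried 5 promoter peaks in each replicate on chr1. The peak with the highest fold was not at the start. It lay 3019 bp upstream in replicate 1, with a fold of 5.67, and 3177 bp upstream in replicate 2, with a fold of 6.80, and its nearest edge was 2562 and 2586 bp from the start. The peak over the start itself had a fold of 4.46 in replicate 1 and 3.16 in replicate 2, higher than 62.8% and 14.7% of the lists. A peak 3270 bp into the gene had folds of 4.89 and 5.27. All 4 groups of TAL1 starts had a peak within 500 bp in both replicates. The promoter peaks at 3270 bp and further into the gene were also within reach of starts of the non-coding gene ENSG00000226252.

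The flanks of TAL1 held 14 peaks in replicate 1 and 11 in replicate 2, of which 8 and 6 lay within 3000 bp of a start of another gene, among them PDZK1IP1 and CYP4A22-AS1. Of those with no other start in reach, the highest was 7801 bp past the gene end in replicate 1 and 7884 bp in replicate 2, with folds of 6.46 and 5.79. Upstream, peaks 9084 bp from the start in replicate 1 and 8799 bp in replicate 2 overlapped, with folds of 2.94 and 3.62.

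Of the genes for LIM-domain adaptors, LMO1 had a peak of 1844 bp over its upstream start in replicate 1, with a fold of 4.72, and replicate 2 had 2 shorter peaks within that stretch, with folds of 3.142 and 3.501. A further promoter peak of replicate 1, with a fold of 2.31, had no counterpart in replicate 2. Its canonical start, 4838 bp further downstream, had no peak within 500 bp in either replicate. A flank peak 15314 bp before the gene was held by both, with folds of 4.18 and 4.13. LMO2 had a peak in 1 list only: an intronic peak of 317 bp in replicate 1, with a fold of 4.28 over 28 fragments, 321 bp from the start of a non-coding transcript. For comparison, of the 511 genes whose strongest promoter peak ranked within 2.5 points of this one in replicate 1, 76.7% had a promoter peak in replicate 2. No other LMO2 peak lay in the gene or in the 50000 bp on either side in either replicate. Over all protein-coding genes, 73.7% had a peak in the gene or these flanks in both replicates.

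**Figure D3:**
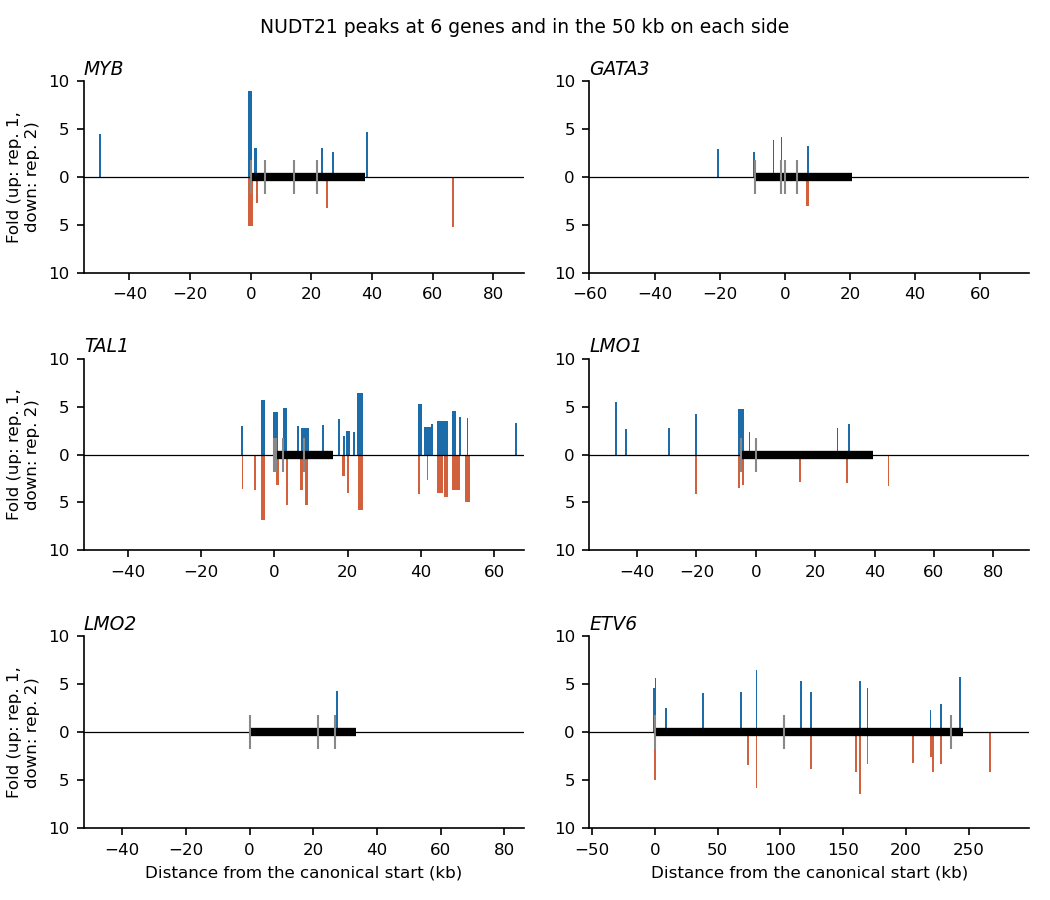
Fold of each peak (replicate 1 upward in blue, replicate 2 downward in red, 0 to 10 on every panel) against the distance from the canonical start in the direction of transcription (kb). The thick line is the gene and grey ticks are groups of starts. MYB shows its high bar at the start, 8.92 upward and 5.11 downward, TAL1 shows bars along the gene and past its end, and LMO2 shows only the bar of 4.28.

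TCF3, which encodes the E proteins E12 and E47, was covered from end to end. Peaks overlay 92.2% of its 43.3 kb in replicate 1 and 85.1% in replicate 2, against medians over protein-coding genes of 2.81% and 1.11%. In replicate 1 a peak of 13093 bp spanned the start with a fold of 26.2, its summit 246 bp upstream over 226 fragments. In replicate 2 the peak there was 847 bp long, ended 22 bp short of the nearest start, and had a fold of 15.3 over 74 fragments at the same summit base. A further peak of 20787 bp in replicate 1 and 20757 bp in replicate 2 lay over the middle of the gene, with folds of 14.9 and 13.9. All 8 groups of TCF3 starts had a peak within 500 bp in both replicates. Since 4 of these groups lay under the long peak in the middle of the gene, their calls rest on the same peak.

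LYL1, the closest relative of TAL1 in the set, is a gene of 4.13 kb with peaks over 81.5% of it in replicate 1 and 70.5% in replicate 2. The peak at its start had a fold of 8.61 in replicate 1 and 7.60 in replicate 2, with the summit at the same base 328 bp downstream of the canonical start. In replicate 1 this peak also reached within 3000 bp of a start of TRMT1, a tRNA methyltransferase gene. The peak further into the gene had folds of 6.33 and 5.32.

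TCF3 and LYL1, both on chromosome 19, had many peaks around them. The flanks of TCF3 held 34 peaks in replicate 1 and 33 in replicate 2, with median folds of 5.69 and 5.51. Those of LYL1 held 27 and 32, with medians of 5.54 and 5.12. At LYL1, 17 and 21 of them lay within 3000 bp of a start of another gene. Among the highest were the peaks over the start of MBD3, 15.86 and 15.02, in the TCF3 flank and over the starts of IER2 and STX10, 16.8 and 14.4, in the LYL1 flank. Of all flank peaks of the 10 genes, 99 in replicate 1 and 89 in replicate 2, these 2 genes held most.

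TCF12, the other E protein gene, gave the opposite picture to TCF3. Over its 380.7 kb, peaks covered 0.55% in replicate 1 and 0.22% in replicate 2. Its main start had a peak with a fold of 6.51 over 39 fragments in replicate 1 and none in replicate 2. That peak also lay by starts of the divergent gene TCF12-DT and of the protein-coding gene ENSG00000285253. The promoter peak of replicate 2 was a different one, 218426 bp into the gene, with a fold of 3.43, and its nearest edge was 2565 bp from the start of a non-coding transcript. Such a loss was not rare: of the 1212 genes whose strongest promoter peak ranked within 2.5 points of TCF12's in replicate 1 and that had a peak at the canonical start there, 80.4% had one in replicate 2. Both replicates had a peak at the 3′ end of TCF12, with summits 75 bp past the end and 267 bp before it and folds of 5.95 and 6.29, within 3000 bp of a start of the non-coding gene LINC00926. Past the gene, replicate 1 had a peak with a fold of 21.3 over 102 fragments, where replicate 2 had 6.61 over 24, by starts of the pseudogene NDUFB10P1.

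**Figure D4:**
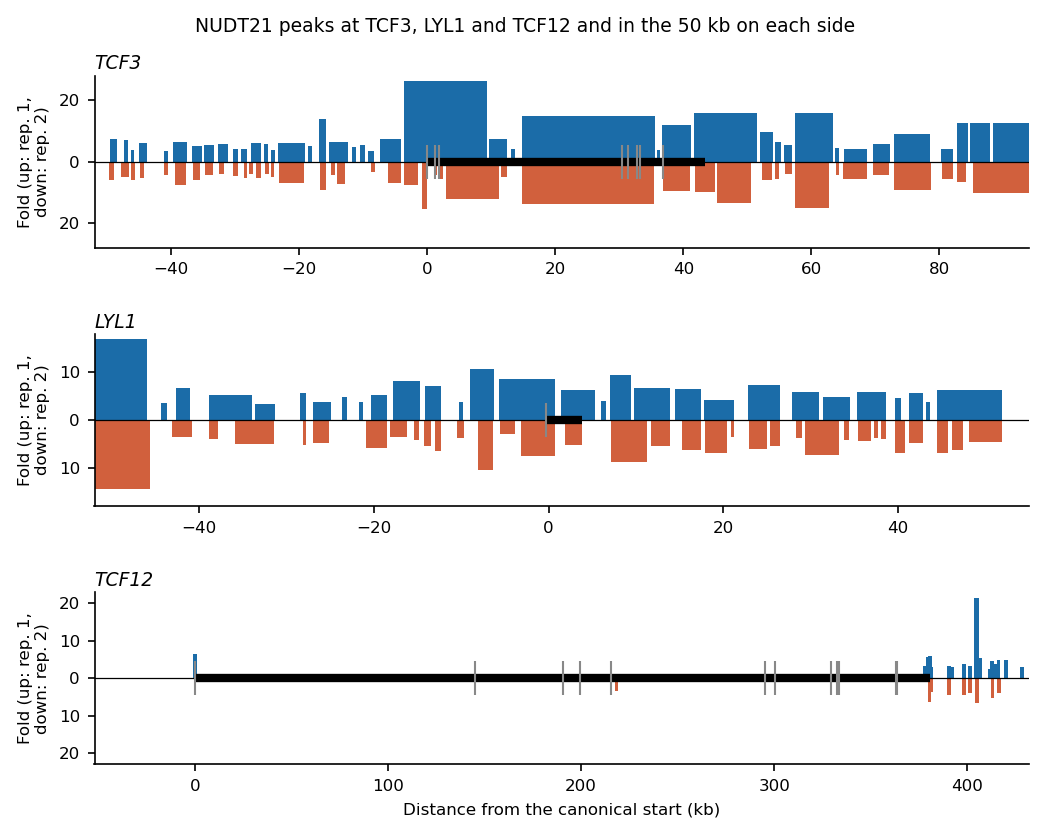
Fold of each peak (replicate 1 upward in blue, replicate 2 downward in red) against the distance from the canonical start in the direction of transcription (kb), each panel with its own fold axis. Bars as wide as their peaks fill TCF3 and its flanks and LYL1 and its flanks, with heights up to 26.2, while TCF12 shows only the replicate 2 bar of 3.43 between its start and its 3′ end.

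Since NUDT21 is known from RNA 3′ ends, peaks at the gene ends were counted too. In both replicates, 2 of the 10 genes, RUNX1 and TCF12, had a peak summit within 1000 bp of the gene end, against 12.9% of protein-coding genes. At RUNX1 the summits lay 339 bp past the end in replicate 1 and 156 bp before it in replicate 2, with folds of 4.78 and 3.89. MYB had one in replicate 1 only. TCF3 had one in replicate 2 only, 963 bp before the end, with a fold of 9.87, in a peak also within reach of the starts of UQCR11. In replicate 1 a peak with a fold of 15.9 overlay the TCF3 end, but its summit was 3576 bp past it.

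Over the gene bodies, 9 of the 10 had a peak in both replicates, against 59.8% of protein-coding genes. Outside the promoter windows 5 had, RUNX1, ETV6, LMO1, TCF3 and TCF12, against 28.6%. Longer genes have more room for a peak. RUNX1, TCF12 and ETV6 span 1216.9, 380.7 and 245.7 kb, against a median of 27.5 kb over all protein-coding genes. Per 10 kb of gene, the median over the 10 genes was 0.953 peaks in replicate 1 and 0.562 in replicate 2. Over all protein-coding genes it was 0.524 and 0.239. The part of gene length in these counts was not tested. Promoter and gene body peaks together numbered 98 in replicate 1 and 77 in replicate 2. Summits in introns numbered 76 of 98 and 63 of 77, of which 49 and 37 were in RUNX1. Of these peaks, 60.2% in replicate 1 and 84.4% in replicate 2 overlapped a peak of the other list by at least 1 bp, and over all peaks the shares were 56.4% and 85.7%. They formed 57 shared regions, 34 of them in RUNX1. In 23 of the 57 the highest summits of the replicates were within 50 bp of each other, and the median distance was 114 bp. Of 53 groups of transcript starts, 19 had a peak within 500 bp in both replicates, or 8 at TCF3, 4 at TAL1, 3 at RUNX1 and 1 each at MYB, ETV6, LMO1 and LYL1, while over all protein-coding genes 29.9% of 69537 such groups did.

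Coverage by peaks went with the base composition of the genes. Over all protein-coding genes the median share covered, as the mean of the replicates, was 0.295% where the gene had under 45% GC, 4.60% from 45 to 50%, 22.4% from 50 to 55% and 57.6% above. TCF3, at 59.6% GC, was covered over 88.6% and LYL1, at 62.1% GC, over 76.0%. TAL1 at 53.2% GC stood at 24.9%, but GATA3 and LMO1, in the same GC range at 51.6% and 52.9%, stood at only 3.87% and 4.20%. Among the genes under 45% GC, MYB was at 5.96%, RUNX1 at 2.94%, ETV6 at 2.05% and TCF12 at 0.387%. LMO2, at 46.3% GC, had 0.473%. GATA3, LMO1 and LMO2 thus lay under the median of genes of like GC, and the other 7 above it. The part of base composition in these peaks was not tested. Coverage at least that of TCF3 was found at 562 genes, TCF3 among them, or 2.81% of protein-coding genes, and 110 of these were on chromosome 19, which holds 1476 of the 20033 genes.

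**Figure D5:**
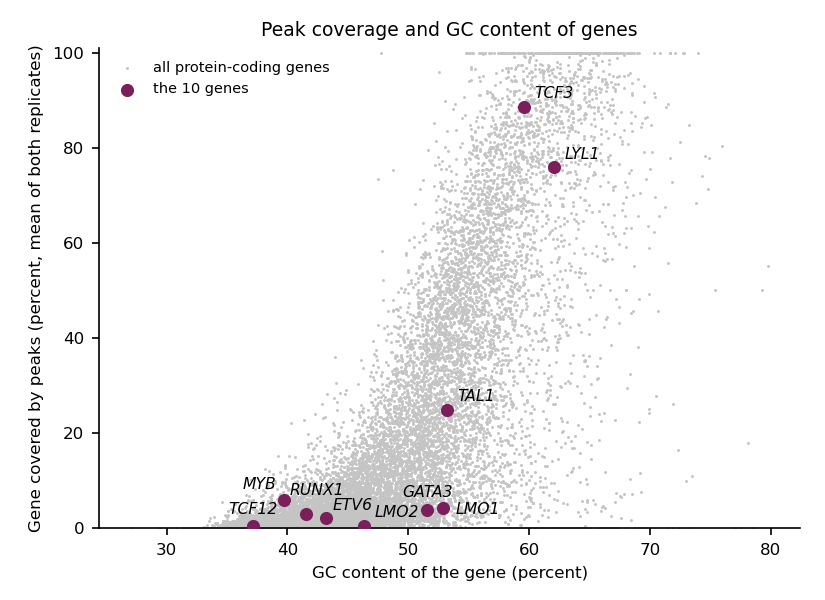
Share of each gene covered by peaks (percent, mean of both replicates) against the GC content of the gene (percent), with all protein-coding genes in grey and the 10 genes in purple. TCF3 and LYL1 lie high among genes of over 55% GC, and GATA3 and LMO1 lie low beside TAL1.

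Binding motifs of the factors themselves were counted within 100 bp of the highest replicate 1 summit in each of the 57 shared regions, on both strands, and beside them over all 49497 shared regions. The E-box was in 34 of the 57, or 59.6%, against 67.3% of all regions. The ETS motif was in 32, or 56.1%, against 53.4%, the MYB motif in 14, or 24.6%, against 22.6%, and the RUNX motif in 11, or 19.3%, against 13.8%. The GATA motif was in 1, or 1.75%, against 2.10%. TGTA was in 29, or 50.9%, against 46.9%. The windows had a mean GC content of 58.8% against 61.3% for all regions. Since 34 of the regions lie in RUNX1, these shares mostly describe that gene, where 6 regions held the RUNX motif and 21 the E-box.

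The sequence at the promoters was available for 9 of the 10 genes as RefSeq windows (GRCh38.p14) from 250 bp before to 50 bp after a start. The RUNX1 window, at a proximal start, had 72.0% GC and 40 CpG, and that of MYB 71.0% and 35. TCF3 had 78.3% and 43, and LYL1 74.7% and 23. Each of these 4 lay under a peak in both replicates. LMO1, with 50.7% and 15 CpG, and ETV6, with 69.0% and 33, lay under a peak in replicate 1 only. TAL1 had 2 windows, of which that with 54.3% and 19 CpG lay under a peak in both replicates and that with 64.3% and 30 CpG in replicate 1 only. Of the 5 TCF12 windows, 4 lay under the replicate 1 peak only, among them that with 73.3% and 38 CpG. Of the 6 GATA3 windows, that with 74.7% and 36 CpG lay under a peak in replicate 1 only, and that with 69.3% and 29 CpG lay under none. A window rich in CpG was thus not always under a peak. Among the 19 windows of these 9 genes, only those of RUNX1, MYB, TCF3 and LYL1 and 1 of TAL1 lay under a peak in both replicates. Over all protein-coding genes, 38.8% of 21613 windows did. Those under a peak in both replicates had a median of 26 CpG and those under none a median of 8.

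Other genes of the same circuits were read in 3 lists. All 7 partners in the TAL1 complex had a promoter peak in both replicates, with a median of 86.9% for their mean rank. CBFA2T3, a corepressor that joins TAL1, was highest at 99.7% in replicate 1 and 98.5% in replicate 2, followed by CBFB, the non-DNA-binding partner of RUNX1, at 96.1% and 91.2%. Of 9 relatives of the 10 genes, 3 had one in both replicates. MYBL2, a cell-cycle MYB, was at 85.4% and 68.1%, and RUNX3, the runt factor of mature T cells, at 80.5% and 38.2%. RUNX2 and TCF4 had none in either. Of 10 oncogenes of other T-ALL subtypes, 3 had one in both and 6 had none in either, namely TLX3, NKX2-1, TAL2, OLIG2, MEF2C and LMO3. HOXA9 and HOXA10 were the highest of this list at 49.9% and 35.2%, and as neighbours they shared these peaks. In all, 13 of the 26 genes met this in each replicate, a share near the 57.0% of protein-coding genes. The lists differed widely among themselves, so this total describes none of them.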

How the data were processed

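NUDT21 Cut &Tag was read in 2 replicates of J.gamma1 cells. Per the labels, the authors trimmed reads with fastp, aligned them to hg38 with Bowtie2 2.2.5 and called peaks per library with MACS3 3.0.1, as the submitters' processing notes name them. Each deposited peak list gives, per the authors' peak caller, the fold (a ratio of pileup to control level, with 1 added to each), −log10 of the p-value and of the q-value, a score (not used here) and the summit. What served as the control is not given in the sources used here. Settings of the peak caller could change every count.

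Fold was ranked within each list. Fragments and control level at a summit were recovered by solving the fold and p-value together, which gave a solution at 99.97% of the peaks of replicate 1 and 100.0% of those of replicate 2. The pileup of replicate 1 had been scaled by 0.9214 and that of replicate 2 by 1. The method and the assignment to genes were tested on simulated data. Genes and starts were those of GENCODE 44 on chromosomes 1 to 22, X and Y, read with Python 3.11.15, pandas 2.3.3 and scipy 1.17.1. Starts up to 500 bp apart were joined into groups and searched with 500 bp on each side. Shared regions were merged peaks with at least 1 of each list. With 1 group of 2 there was no test.

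The genes and lists were chosen with earlier results of these data known. All 10 genes are named. Of the other lists, the genes with no promoter peak in either replicate and the 2 highest by mean rank are named, which names none of the partners for lacking a peak, and other genes are named where a peak lay within 3000 bp of their start. The counts at the canonical start and at the gene end were added after the data were seen.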

Additional observations from a re-analysis of the deposited data

Results flagged for a closer look

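Peaks outside chromosomes 1 to 22, X and Y entered no comparison. The list of replicate 1 held 4440 of them and that of replicate 2 held 1861, on alternate, unlocalized and unplaced sequences of the build. The 10 genes were not looked for there.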

How the results depend on the processing

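No paired analysis was possible because the libraries are replicates of a sole group. Of 46 recomputed values, 36 stayed within 1.5 times the reported count or within 1 SD between the replicates, 10 moved and 0 reversed. The values are counts, shares and ranks without a sign, so none of them could reverse. The median rank stayed by this rule, though it lay above that of all genes in replicate 1 and below it in replicate 2. With only the top 10000 peaks of each list, 3 of the 10 genes (RUNX1, TCF3 and LYL1) had a promoter peak in both replicates, 3 had a gene body peak, 7 groups of starts had a peak and 4 of the 26 genes of the other lists had one. A peak within 500 bp of the canonical start, chosen after seeing the data, left 5 of the 10 genes. Counting gene body peaks outside the promoter window left 5. With either replicate left out, the genes with a promoter peak numbered 9 to 10, those with a gene body peak 9 to 10, the median rank of the strongest promoter peak was 72.2% to 86.2%, and the genes of the other lists numbered 13 to 18. A limit of 1000 bp gave 7 genes, without GATA3 and TCF12. For the top 10000 peaks and for the limit of 1000 bp, no share over all protein-coding genes was taken. Those counts therefore have no background to stand beside. The share of the genes' peaks held by both lists, 72.3% as the mean of the replicates, was 44.6% for summits within 200 bp and 52.7% for a reciprocal overlap of 50%. The number of peaks at the genes and in their flanks, 181.5 as the mean of the replicates, was 105.5 with flanks of 10000 bp. The GATA motif, in 1 shared region, was in 0 at the replicate 2 summits. Replicate 2 has fewer peaks and fewer fragments per peak, so a peak missing there was not detected at its depth and is not shown to be absent.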
